A study of Mus musculus with 70 samples.

Results

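Growth factor and synaptic signals pass through Ras and the ERK MAP kinases, and active ERK induces genes that shut the pathway down again. The dual-specificity phosphatases Dusp1, Dusp4, Dusp5 and Dusp6 remove the activating phosphates from MAP kinases, the Sprouty proteins Spry2 and Spry4 and the Spred proteins Spred1 and Spred2 act near Ras and Raf, and Etv5 is a transcription factor of the ETS family induced below FGF receptors and ERK. In neurons several of these genes belong to the response to synaptic activity, and their transcript level is often read as a trace of recent ERK signalling. These 9 listed genes were looked up by symbol in a table of 14260 genes, and all 9 were present.

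The table holds RNA-seq of the hippocampus of APP23 mice (TG), which carry a human APP transgene under the neuronal Thy1 promoter, and of their non-transgenic littermates (NTG). Mice of both genotypes were either placed on time-restricted feeding (TRF), with food from zeitgeber time (ZT) 15 to 21, or kept on ad libitum feeding (ALF). The mice on TRF were 6 to 9 months old when it began, and the hippocampi came from mice aged 10 to 13 months, killed at ZT0 (lights on), ZT6, ZT12 (lights off) or ZT18. There were 18 TG mice on TRF, 19 TG mice on ALF, 16 NTG mice on TRF and 16 NTG mice on ALF. All were singly housed on a 12 h light and 12 h dark cycle. Both sexes were used, but the labels do not give the sex of each animal.

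Each animal gave 1 library from 1 hippocampus, except that 2 libraries with the same number, 1 of them marked R, were averaged as 1 animal, so that 70 libraries stand for 69 animals. The labels do not say that the library marked R is a repeat of the same animal, so the number of animals is inferred. Totals of the normalized counts lay between 34964574 and 42379954, and the reads before scaling were not analysed here. The count of Thy1, whose promoter drives the transgene, lay between 101986 and 171318 in the 37 TG libraries and between 14727 and 29068 in the 33 NTG libraries, so that no library went against its genotype label. Defining markers of hippocampal neurons, astrocytes, oligodendrocytes and microglia were above 0 in every library. Choroid plexus transcripts differed widely between dissections, with summed levels of 9 markers between 1070 and 234989. All 11 animals killed at ZT6 and all 10 killed at ZT18 carried numbers of 300 or more, against 2 of 25 at ZT0 and 1 of 23 at ZT12. A difference between those pairs of times therefore cannot be told apart from the number series, and times were compared as ZT12 with ZT0 and ZT18 with ZT6.

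The promoters of 7 of the 9 genes matched the RefSeq promoter table (GRCm38.p6, 250 bases before to 50 after the start). Those of Dusp1, Dusp5 and Dusp6 are printed because each 2 of these 3 genes went together across animals, while their upstream letters differ. Pearson r of these pairs lay between 0.52 and 0.63. Spry4 went with Dusp6 (r = 0.57), Dusp5 (0.54) and Dusp1 (0.39) as well. It is left out only because Dusp4 and Spry4 had no matching promoter. Each run gives the 250 bases before the transcript's start, 5′ to 3′ on the strand of the gene, with Dusp1 at chr17:26508473-26508722 (minus strand), Dusp5 at chr19:53528895-53529144 (plus strand) and Dusp6 at chr10:99262981-99263230 (plus strand). Capitals mark letters that match a searched motif.
Dusp1: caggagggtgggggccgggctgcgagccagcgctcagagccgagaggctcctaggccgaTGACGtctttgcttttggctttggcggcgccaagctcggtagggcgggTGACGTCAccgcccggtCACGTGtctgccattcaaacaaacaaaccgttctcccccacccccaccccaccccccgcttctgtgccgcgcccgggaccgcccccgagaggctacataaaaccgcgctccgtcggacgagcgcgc
Dusp5: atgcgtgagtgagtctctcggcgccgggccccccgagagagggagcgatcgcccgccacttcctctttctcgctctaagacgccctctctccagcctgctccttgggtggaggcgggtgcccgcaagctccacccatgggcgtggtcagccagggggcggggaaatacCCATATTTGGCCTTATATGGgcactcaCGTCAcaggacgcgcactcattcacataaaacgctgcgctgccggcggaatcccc
Dusp6: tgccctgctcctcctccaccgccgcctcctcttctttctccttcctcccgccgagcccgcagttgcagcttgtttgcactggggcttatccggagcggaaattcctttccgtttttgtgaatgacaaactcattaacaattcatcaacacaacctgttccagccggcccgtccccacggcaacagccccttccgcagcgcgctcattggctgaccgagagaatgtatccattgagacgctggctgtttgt
The capitals of Dusp1 are a TGACG core, then the full cyclic AMP response element TGACGTCA, which contains the core on both strands, and last the E-box CACGTG. Those of Dusp5 are 2 adjacent CArG boxes, the motif of serum response factor, followed by a TGACG core on the other strand. No searched motif was found in the Dusp6 window. Over all 32544 promoters of this length, 1.8% held TGACGTCA, 20.9% the TGACG core, 7.17% CACGTG and 1.64% a CArG box, each searched on both strands. Of the other members, the Spred2 window held the TGACG core and the Spry2 window, after the start, the ETS letters CCGGAA, which 15.0% of promoters held. The AP-1 letters TGANTCA and the EGR letters GCGNGGGCG were in none of the members' windows and in 7.79% and 5.6% of all promoters.

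In the RefSeq gene models on GRCm38 the other genes called in a comparison lie at chr8:34807610-34819894 (Dusp4, plus strand), chr14:105891947-105896819 (Spry2, minus strand), chr2:117121071-117182279 (Spred1, plus strand) and chr16:22381313-22439570 (Etv5, minus strand), beside Spry4 on chromosome 18. Compared per kilobase of exon in the GENCODE vM21 gene models (the annotation used for counting was not given in the sources used here), Etv5, Spry2 and Dusp6 had the highest levels. Their normalized counts per kilobase averaged 599, 592 and 581 (n = 69 animals). Spred2 followed at 524 and Spred1 at 472, and among these 5 genes neighbours in the order differed by less than 1 SD. Dusp4 averaged 254, Dusp5 195, Dusp1 189 and Spry4 97.0 per kilobase, of which Dusp5 and Dusp1 differed by less than 1 SD. The GENCODE model of Dusp1 runs to chr17:26562128, while its RefSeq model ends at 26508472. Its 3.311 kb of exon is longer than the whole RefSeq gene. The level of Dusp1 per kilobase may therefore be too low, and its place in the order is uncertain. The SD over all animals, as a share of the mean, was 33.9% for Dusp1, 25.3% for Dusp5, 24.7% for Spry4, 19.8% for Spry2 and 16.6% for Dusp4. It was lower for Etv5 (15.8%), Spred1 (15.0%) and Spred2 (11.1%).

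**Figure D1:**
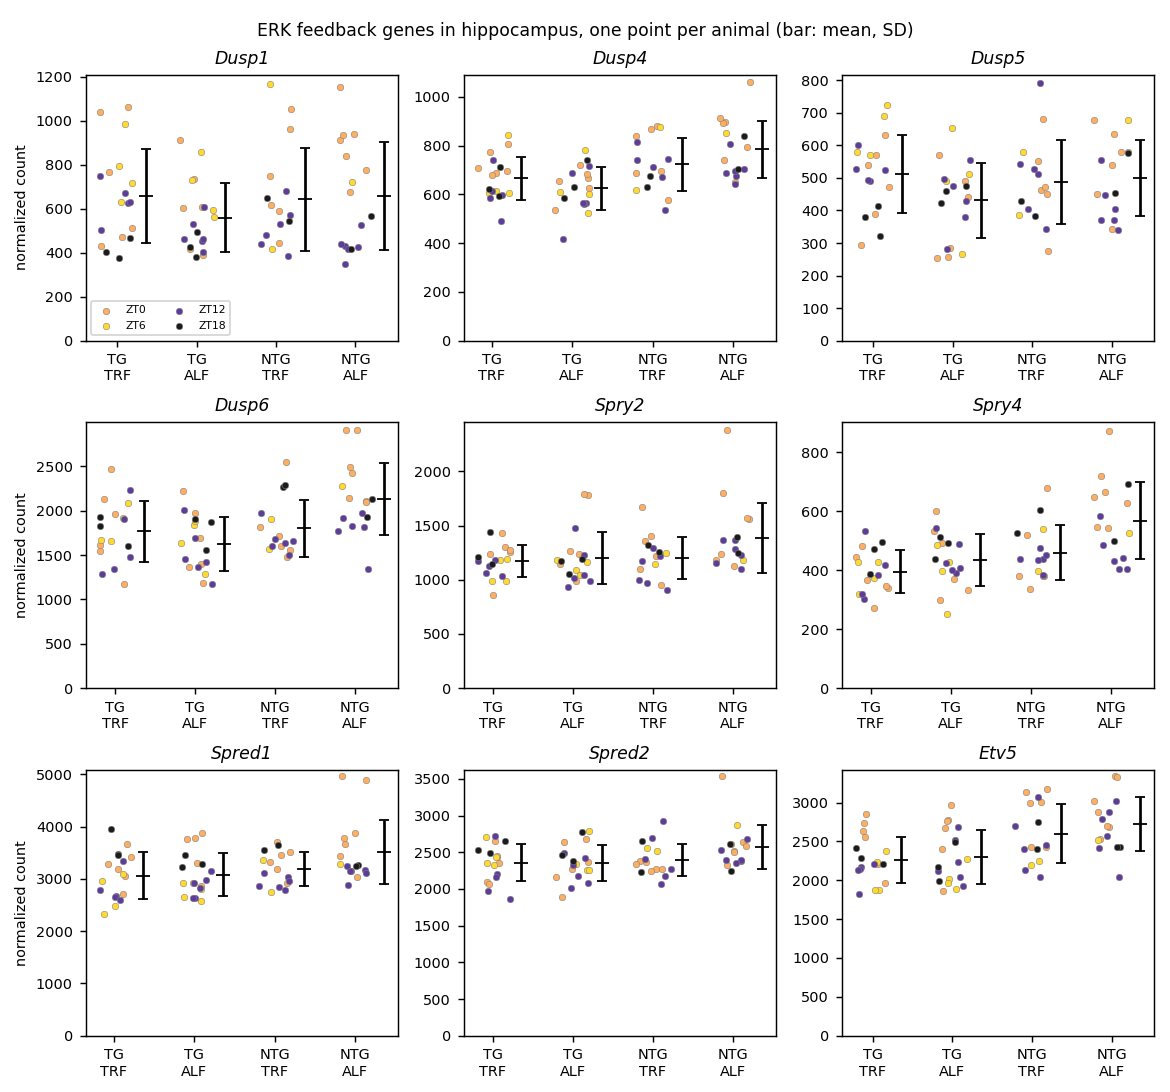
Normalized count (vertical axis, from 0) of the 9 ERK feedback genes in each of 69 hippocampi, by genotype and feeding (horizontal axis) and coloured by time of sacrifice; bars give the mean and SD of a group. Dusp6 averaged 1627 in TG mice and 2129 in NTG mice on ALF, and the points of the 2 groups overlap.

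To ask what the transgene did under free feeding, TG mice were compared with NTG mice on ALF. All 9 genes had a negative fold change (median log2 fold change −0.21, against −0.0017 over all genes, 51.2% of which were negative), and 2 of the 9 passed the threshold, both lower. Over all genes 0.189% passed in either direction and 0.0701% as lower (limma on log2 of the normalized count plus 1, with terms for time; Benjamini-Hochberg adjusted p under 0.05 over 14260 genes is the threshold throughout). The phosphatase genes Dusp6 and Dusp4 were these 2, and Spry4 had a fold change of similar size above the threshold. Fewer cells of a type and less RNA per cell cannot be told apart in such bulk tissue.

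Dusp6, the cytoplasmic phosphatase selective for ERK, had a lowest, median and highest normalized count of 1174, 1640.4 and 2222 in TG mice on ALF, against 1348, 2105 and 2911 in NTG mice on ALF. The groups overlapped over most of their range, with the highest NTG animals above every TG animal. The log2 fold change was −0.40 ± 0.09 (SE, adjusted p = 0.00928), so that the level fell by 24.2%. At ZT0 6 TG mice on ALF lay between 1180.0 and 2222 and 7 NTG mice on ALF between 2098 and 2911. At ZT12 the range of 6 TG mice on ALF, 1174 to 2008, contained that of 6 NTG mice on ALF, 1348 to 1971.

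Dusp4, a nuclear phosphatase of ERK and other MAP kinases, ran at 416, 628 and 784 (lowest, median, highest) in TG mice on ALF, against 641, 769 and 1060 in NTG mice on ALF. The NTG animals' lowest value lay above the TG median. Its log2 fold change was −0.33 ± 0.07 (SE, adjusted p = 0.00551), and the level fell by 20.2%. Both genes passed the threshold in every fit that left out 1 of the 69 animals, with adjusted p up to 0.0290 for Dusp6 and 0.0161 for Dusp4. Neither passed with ZT0 and ZT12 animals alone (adjusted p = 0.119 for Dusp6 and 0.0663 for Dusp4), and neither passed without the 5 animals whose profiles correlated least with the rest (0.0687 for Dusp6 and 0.0676 for Dusp4). Fold changes in these fits lay between −0.43 and −0.28.

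Spry4, a Sprouty inhibitor of receptor tyrosine kinase signalling, had a lowest, median and highest count of 250.9, 428 and 599 in TG mice on ALF, against 403, 545 and 871 in NTG mice on ALF. At −0.38 ± 0.10 (SE) its log2 fold change missed the threshold (adjusted p = 0.0769), which it passed when any 1 of 3 animals was left out, a TG mouse on ALF at ZT0 or an NTG mouse on ALF at ZT12 or at ZT18. With the choroid plexus level as a covariate it passed as well, at −0.43 (adjusted p = 0.020). The transcription factor gene Etv5 followed at −0.21 ± 0.06 (adjusted p = 0.141). Fold changes of the remaining 5 genes lay between −0.27 (Dusp5, nuclear ERK phosphatase) and −0.14 (Spred2, partner of neurofibromin at the membrane), with adjusted p from 0.360 to 0.843.

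**Figure D2:**
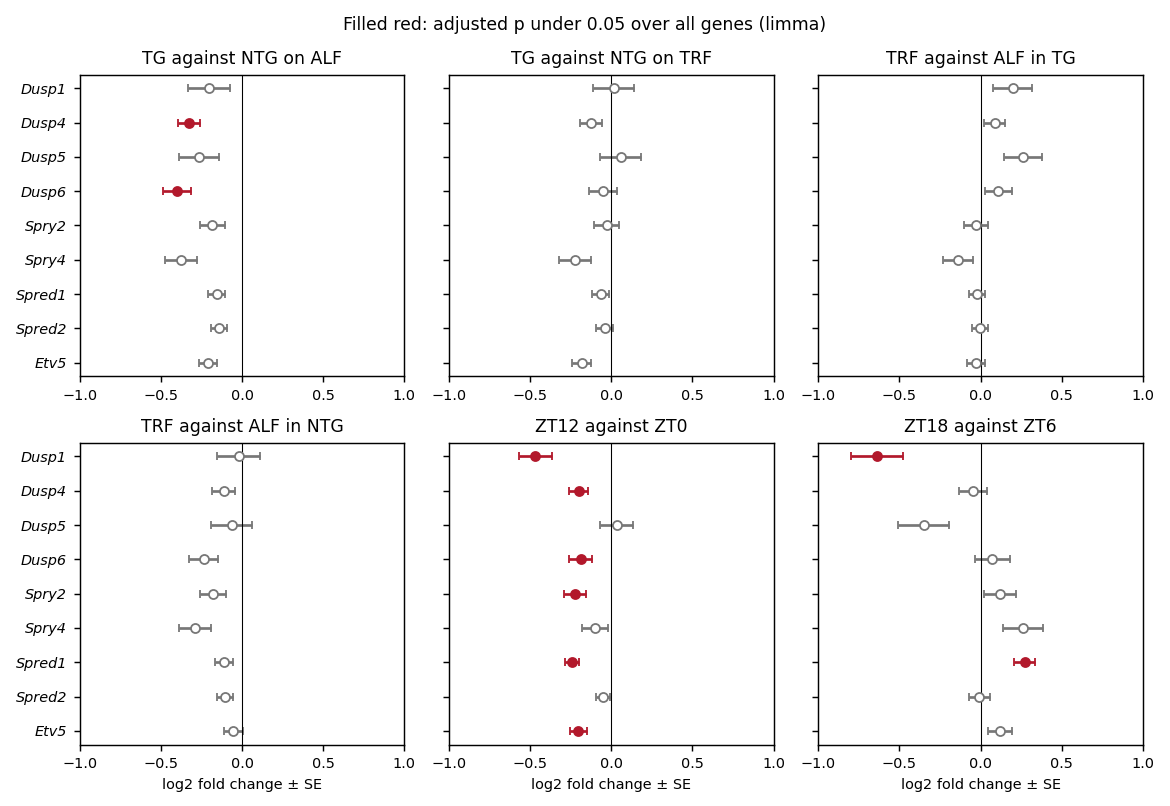
Log2 fold change with its SE (horizontal axis) of the 9 genes (vertical axis) in 6 comparisons; filled red points passed an adjusted p of 0.05 over all genes in limma. All 9 points lie left of 0 for TG against NTG on ALF, and 6 red points lie left of 0 for ZT12 against ZT0.

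Cell type marker lists differed in direction in this comparison, and no marker of any list was called. The 8 astrocyte markers had fold changes below 0 in TG mice on ALF (median −0.15, none called), with summed levels between 147083 and 232446 in TG mice and between 164868 and 269305 in NTG mice. The 7 markers of oligodendrocyte precursors did likewise (median −0.11, none called), with sums between 11289 and 15250.4 in TG mice and between 11277 and 18333 in NTG mice. Choroid plexus markers were above 0 in 9 of 9 (median 1.67, none called), with sums between 1360 and 188832 in TG mice and between 1070 and 175263 in NTG mice. Those of the meninges were above 0 in 6 of 6 (median 0.22), and those of thalamus and cortex neighbours below 0 in 6 of 6 (median −0.15), with none called in either list. Microglial markers were above 0 in 6 of 7 (median 0.09), and those of pyramidal and granule neurons below 0 in 7 of 8 (median −0.07). Oligodendrocyte markers were above 0 in 5 of 8 and endothelial markers in 4 of 7, while interneuron markers were below 0 in 4 of 6. With the astrocyte level as a covariate Dusp6 stood at −0.47 (adjusted p = 0.00203) and Dusp4 at −0.29 (0.0494). With the precursor level as a covariate they stood at −0.43 (0.0117) and −0.27 (0.0888), and with the choroid plexus level at −0.43 (0.00479) and −0.32 (0.0169).

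On TRF the same contrast gave no call among the members, against 0.133% of all genes. Fold changes of 7 of the 9 were negative (median −0.05). Dusp6 averaged 1767 ± 343 in TG mice and 1799 ± 318 in NTG mice on TRF (SD, n = 18 and 16), a log2 fold change of −0.05 ± 0.09 (SE, adjusted p = 0.901). Dusp4 averaged 665 ± 89.5 in TG mice and 723 ± 108 in NTG mice on TRF, at −0.13 ± 0.07 (adjusted p = 0.726). The smallest adjusted p, 0.394, belonged to Etv5 at −0.18 ± 0.06, nearly the size it had on ALF.

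Averaged over both feedings, a contrast added after seeing the data, the transgene went with lower levels of 3 members, Dusp4, Spry4 and Etv5, while 0.449% of all genes passed in either direction and 0.281% as lower. Etv5 had a lowest, median and highest count of 1823, 2215 and 2966 in 37 TG mice, against 2041, 2631 and 3347 in 32 NTG mice, a log2 fold change of −0.20 ± 0.04 (SE, adjusted p = 0.00437). For Spry4 these counts were 250.9, 418 and 599 in TG mice, against 334, 492 and 871 in NTG mice, at −0.30 ± 0.07 (adjusted p = 0.0138). Dusp4 stood at −0.23 ± 0.05 (adjusted p = 0.00489) and Dusp6 at −0.23 ± 0.06 (0.0659). With the precursor level as a covariate none of the 3 passed: Etv5 was at −0.14 (adjusted p = 0.247), Spry4 at −0.27 (0.160) and Dusp4 at −0.15 (0.292). With the astrocyte level as a covariate Dusp4 was at −0.19 (0.0758), while Etv5 and Spry4 passed. With ZT0 and ZT12 animals alone none of the 3 passed either (adjusted p = 0.056 for Dusp4, 0.0804 for Etv5 and 0.191 for Spry4), and Spry4 did not pass without the 5 least correlated animals (−0.24, 0.0925).

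Some cell type markers were called in this averaged contrast. The astrocyte markers were below 0 in 8 of 8 (median −0.13), with the glutamate transporter genes Slc1a2 (−0.24, adjusted p = 0.0117) and Slc1a3 (−0.15, 0.0179) called lower. Interneuron markers were below 0 in 5 of 6 (median −0.15), with Pvalb called lower (−0.28, adjusted p = 0.0365). Precursor markers were below 0 in 7 of 7 (median −0.13) and microglial markers above 0 in 7 of 7 (median 0.10), with none called in either list.

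Feeding itself called no member. In TG mice 0.54% of all genes passed for TRF against ALF, and the smallest adjusted p among the members was 0.253, for Dusp5. Dusp5 ran at 295, 525.8 and 724 (lowest, median, highest) in TG mice on TRF, against 253, 459 and 652 in TG mice on ALF, a log2 fold change of 0.26 ± 0.12 (SE). In NTG mice 0.0281% of all genes passed, and all 9 members had a negative fold change without a call (median −0.11). Spry4 had the smallest adjusted p there, 0.336, with a lowest, median and highest count of 334, 437 and 676 in NTG mice on TRF, against 403, 545 and 871 in NTG mice on ALF, at −0.29 ± 0.10. Dusp6 stood at 0.11 ± 0.08 for TRF against ALF in TG mice (adjusted p = 0.491) and at −0.24 ± 0.09 in NTG mice (0.443). Over both genotypes 1.68% of all genes passed and again no member, Spry4 being closest at −0.21 ± 0.07 (adjusted p = 0.0803).

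The difference between the feeding effects of the genotypes was tested as an interaction. Its sign was positive for all 9 members (median 0.15), that is, TRF minus ALF was higher in TG mice than in NTG mice, but 0% of all genes and no member passed in limma. At an unadjusted p under 0.05 there were 745 genes, or 5.22% of the table, and 2 members: Dusp6 at 0.35 ± 0.12 (SE, p = 0.00521, adjusted p = 0.929) and Dusp4 at 0.20 ± 0.09 (p = 0.0372, adjusted p = 0.940). The call for Dusp6 and Dusp4 on ALF and its absence on TRF are thus not shown to differ.

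More of these genes passed for time of sacrifice than for genotype or feeding, as did more of the table. In a test over the 4 times 6 of the 9 passed, while 35.6% of all genes did: Spred1 (adjusted p = 2.07e-06), Dusp1 (4.67e-05), Etv5 (0.000286), Spry2 (0.0185), Dusp4 (0.0264) and Dusp6 (0.0451). Dusp5, Spry4 and Spred2 did not pass. This test also spans the number series, so its calls by themselves cannot be put down to time of sacrifice. The call for Dusp6 was lost in 28 of the 69 fits that left out 1 animal (adjusted p up to 0.0788) and also with upper-quartile rescaling (0.0514), plain empirical Bayes (0.0513), and the choroid plexus level (0.0632) or the number series (0.0595) as a covariate. That for Spry2 was lost without the 5 least correlated animals (adjusted p = 0.148) and with array weights (0.0516), and that for Dusp4 without the same 5 animals (0.0625) and with libraries rescaled to the same total (0.0596). All 6 were lower at ZT12, at lights off, than at ZT0, at lights on, while 26.1% of all genes were called in either direction and 12.8% as lower.

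Dusp1, a nuclear early-response phosphatase that acts on ERK and on the stress-activated MAP kinases, had a lowest, median and highest count of 348, 481 and 751 in 23 animals at ZT12, against 389.8, 748 and 1153 in 25 animals at ZT0. The 2 times overlapped, and 2 of the ZT12 animals lay below every ZT0 animal. The log2 fold change was −0.47 ± 0.10 (SE, adjusted p = 0.000441), and the level fell by 27.7%.

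Spred1, an inhibitor of the Ras to Raf step, ran at 2595, 2917 and 3344 (lowest, median, highest) at ZT12, against 2715, 3431 and 4959 at ZT0, a log2 fold change of −0.24 ± 0.04 (SE, adjusted p = 2.51e-05). Etv5 ran at 1823, 2234 and 3075 at ZT12, against 1857, 2729.9 and 3347 at ZT0, at −0.20 ± 0.05 (adjusted p = 0.00235). Dusp4 stood at −0.20 ± 0.06 (adjusted p = 0.00882), the Sprouty gene Spry2 at −0.22 ± 0.07 (0.0113) and Dusp6 at −0.19 ± 0.07 (0.0445). Dusp6 lost its call in 24 of the 69 fits that left out 1 animal, with adjusted p up to 0.0798. Rescaling to the same total (adjusted p = 0.101) or upper quartile (0.0555) also removed the call of Dusp6. So did the choroid plexus level as a covariate (0.0531) and ZT0 and ZT12 animals alone (0.0678). Spry2 lost its call without the 5 least correlated animals, where it stood at −0.12 (adjusted p = 0.166). Dusp5 was at 0.03 ± 0.10 (adjusted p = 0.836), with 282, 489.6 and 791 at ZT12, against 253, 473 and 681 at ZT0.

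Markers of oligodendrocyte precursors moved the same way: 6 of 7 had negative fold changes (median −0.31) and 5 were called lower. Their summed level lay between 9574 and 13900.3 at ZT12, against 12600.3 and 16332 at ZT0, and none was at 0 in any animal. Of 7 endothelial markers 5 were called lower and 2 higher, with sums between 3701 and 7855 at ZT12, against 4439 and 9673 at ZT0. Microglial markers were called lower in 2 of 7 and those of the meninges in 2 of 6. Of 8 astrocyte markers 1 was called lower and 1 higher, and of 8 oligodendrocyte markers 1 higher. Pyramidal and granule neurons had 1 of 8 called lower, and thalamus and cortex neighbours 1 of 6. No interneuron or choroid plexus marker was called. With the precursor level as a covariate, an alternative chosen after seeing the data, none of the 6 members passed. The share of all genes called in that fit is not given here, so this count has no background beside it. Because 5 of the 7 precursor markers were themselves called lower at ZT12, the covariate overlaps with the contrast. Dusp6 was at −0.23 with the covariate (adjusted p = 0.181), against −0.19 without it. With it Dusp1 was at −0.27 (0.276), Spred1 at −0.18 (0.0671), Etv5 at −0.06 (0.649), Dusp4 at −0.06 (0.739) and Spry2 at 0.03 (0.866). Whether precursor content accounts for the change with time was not tested.

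**Figure D3:**
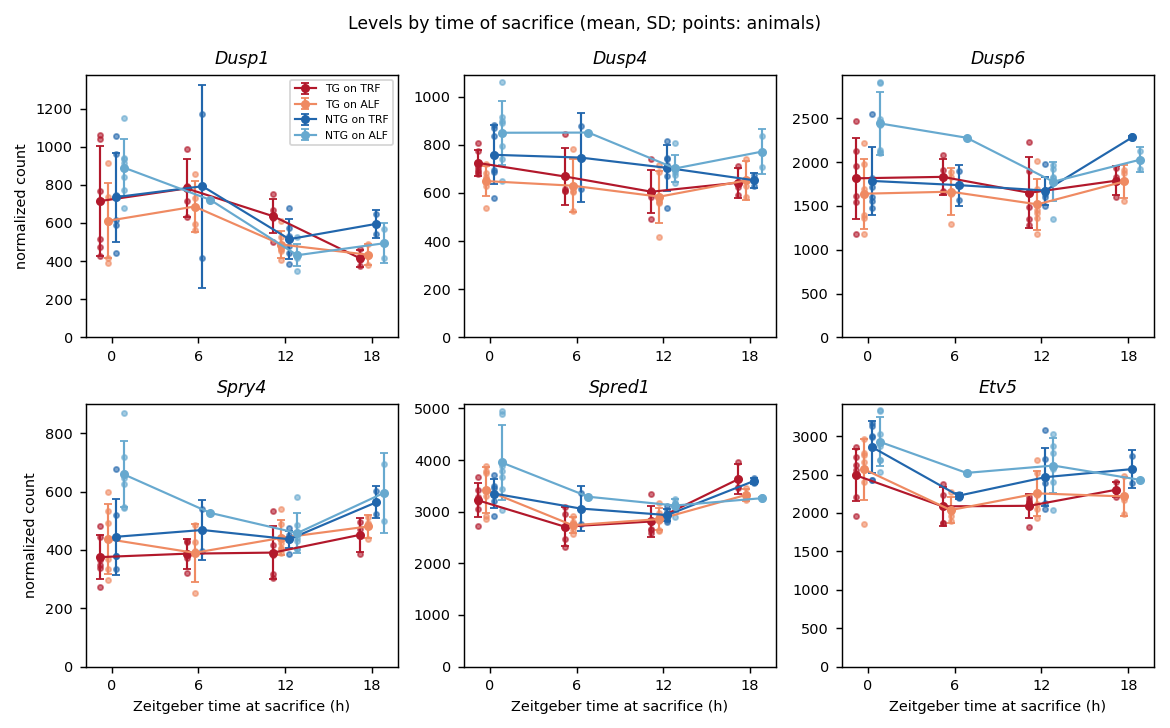
Normalized count (vertical axis, from 0) of 6 of the genes by zeitgeber time of sacrifice (horizontal axis, h); points are animals, shifted sideways by group, and joined symbols give the group mean and SD (1 NTG animal on ALF at ZT6 has no SD). Dusp1 of NTG mice on ALF averaged 431 at ZT12 and 891 at ZT0.

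Within the 4 groups, NTG mice on ALF showed the only calls among the members, Dusp1 and Spred1, while 2.17% of all genes passed there, 1.23% as lower. Dusp1 had a lowest, median and highest count of 348, 428 and 525.7 in 6 animals at ZT12, against 678, 914 and 1153 in 7 animals at ZT0. The 2 times did not overlap, and the log2 fold change was −1.04 ± 0.20 (SE, adjusted p = 0.000886), and the level fell by 51.3%. Dusp6 did not overlap either, with 1348, 1822 and 1971 at ZT12, against 2098, 2426 and 2911 at ZT0, but its log2 fold change of −0.46 ± 0.14 missed the threshold (adjusted p = 0.0577). Spry4 was likewise just outside it at −0.52 ± 0.15 (adjusted p = 0.0503), with 403, 436 and 583 at ZT12, against 544, 647 and 871 at ZT0. Spred1 stood at −0.32 ± 0.08 (adjusted p = 0.0212), a call lost without either of 2 animals at ZT0 or without 1 animal at ZT12, with adjusted p up to 0.104. All 9 members had a negative fold change in this group (median −0.32, against 0.0067 over all genes), and its precursor markers were below 0 in 5 of 7 (2 called lower). With the precursor level as a covariate Dusp1 stood at −0.82 and did not pass (adjusted p = 0.113). Of the 7 endothelial markers 4 were called lower in this group (Kdr, Pecam1, Cldn5 and Flt1; list median −0.58), and of the 7 microglial markers Cx3cr1 was called lower (−0.37, adjusted p = 0.0319).

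In the other groups no member passed for ZT12 against ZT0, while 3.55% of all genes passed in TG mice on TRF, 2.22% in TG mice on ALF and 0.596% in NTG mice on TRF. Dusp1 had single counts of 502, 624, 629, 670.2 and 751 in the 5 TG mice on TRF at ZT12, against a lowest, median and highest of 429, 641 and 1064 in 6 at ZT0. In TG mice on ALF it ran at 404, 462 and 609 at ZT12, against 389.8, 605 and 913 at ZT0, and in NTG mice on TRF at 384, 507 and 679 at ZT12, against 443, 683 and 1055 at ZT0. The 2 times overlapped in all 3 groups, with log2 fold changes of −0.08 ± 0.21 in TG mice on TRF, −0.28 ± 0.20 in TG mice on ALF and −0.48 ± 0.20 in NTG mice on TRF.

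Whether the step between ZT0 and ZT12 differed between genotypes or feedings was tested directly. For genotype by time 0% of all genes passed in limma and 694 genes had an unadjusted p under 0.05, or 4.87%. Dusp1 was the 1 member among them, at 0.58 ± 0.20 (SE, p = 0.00650, adjusted p = 0.989), so that its difference between the genotypes did not pass. For feeding by time 0% passed, 489 genes had an unadjusted p under 0.05, and none was a member; Dusp1 stood at 0.38 ± 0.20 (adjusted p = 0.972).

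At single times, both contrasts left the members without a call. For TG against NTG at ZT0, 0.112% of all genes passed, and all 9 members were negative, from −0.42 ± 0.11 for Spry4 (adjusted p = 0.180) to −0.09 for Spred2. At ZT12 0.154% passed, and 7 members were negative and 2 positive. Dusp4 stood at −0.25 ± 0.09 (adjusted p = 0.390) and Etv5 at −0.22 ± 0.07 (0.367). The positive members were Dusp1 at 0.24 ± 0.15 (adjusted p = 0.603) and Dusp5 at 0.06 ± 0.15 (0.916). Dusp6 stood at −0.29 ± 0.10 at ZT0 (adjusted p = 0.641) and at −0.14 ± 0.10 at ZT12 (0.669). For TRF against ALF at ZT0, 0.0491% passed and Spry4 came closest at −0.40 ± 0.11 (adjusted p = 0.0985); without 1 TG mouse on ALF at ZT0 it passed. Spry4 had lowest, median and highest counts of 272, 357 and 482 in TG mice on TRF and 334, 380.3 and 676 in NTG mice on TRF, against 298, 431 and 599 in TG mice on ALF and 544, 647 and 871 in NTG mice on ALF. Apart from the highest NTG animal, all values on TRF at ZT0 lay below the lowest NTG value on ALF. The same held for all TG mice on ALF apart from the highest, so NTG mice on ALF were the group that stood apart. Within TG mice the feedings overlapped (272 to 482 on TRF, 298 to 599 on ALF). At ZT12 0.00701% passed, and the largest sizes were 0.31 ± 0.15 for Dusp1 and 0.30 ± 0.15 for Dusp5 (adjusted p = 0.9997 for both).

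Between ZT18 and ZT6, 2 members passed, against 8.04% of all genes in either direction and 3.77% as lower, and they moved in opposite directions. Dusp1 was lower at ZT18, with single counts of 374, 404 and 465 in TG mice on TRF, against 629.7, 715, 794 and 987 in TG mice on TRF at ZT6. In TG mice on ALF it had 381, 427 and 492 at ZT18, against 562, 596, 729 and 859 at ZT6. In NTG mice on TRF it had 543 and 648 at ZT18, against 416 and 1169.6 at ZT6, and in NTG mice on ALF 419 and 569 at ZT18, against 721 in the 1 animal at ZT6. In TG mice the times did not overlap on either feeding. The log2 fold change was −0.64 ± 0.16 (SE, adjusted p = 0.00655), and the level fell by 35.7%.

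Spred1 was higher at ZT18, with 3455, 3472 and 3962 in TG mice on TRF, against 2320.4, 2474, 2952 and 3093 in the same group at ZT6. TG mice on ALF had 3231, 3281 and 3463 at ZT18, against 2568, 2652, 2808 and 2919.8 at ZT6. NTG mice on TRF had 3550.3 and 3643 at ZT18, against 2754 and 3368 at ZT6, and NTG mice on ALF 3249 and 3275 at ZT18, against 3289 in the 1 animal at ZT6. The 2 times did not overlap in TG mice on either feeding or in NTG mice on TRF, while the NTG mice on ALF at ZT18 lay just below the 1 at ZT6. Over all groups the log2 fold change was 0.27 ± 0.07 (SE, adjusted p = 0.00359). Both genes kept their calls in all 69 fits that left out 1 animal. Fold changes of the other 7 members lay between −0.35 (Dusp5) and 0.26 (Spry4), none called.

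The rest of the pathway was followed in 6 lists, whose counts for ZT12 against ZT0 stand beside the 26.1% of all genes called there. Of 13 genes for Ras and the ERK cascade kinases, none was called for genotype or feeding, and 3 were called higher at ZT12 than at ZT0: Map2k5 at 0.14 ± 0.04 (SE, adjusted p = 0.0038), Map2k1, the kinase that phosphorylates ERK, at 0.12 ± 0.04 (0.0326) and Hras at 0.11 ± 0.04 (0.0490). Of 21 receptors and adaptors 7 were called lower and 2 higher at ZT12, led by the FGF receptor Fgfr2 at −0.34 ± 0.06 (adjusted p = 1.19e-05) and the docking protein Gab1 at −0.37 ± 0.06 (1.66e-05). Fgfr2 was the 1 gene of this list called for feeding in TG mice, at −0.36 ± 0.07 for TRF against ALF (adjusted p = 0.00236). Averaged over both genotypes, 3 of the 21 were called lower on TRF, while 1.68% of all genes passed in either direction. These were Fgfr2 at −0.27 ± 0.05 (adjusted p = 0.000782), Erbb3 at −0.31 ± 0.08 (0.0213) and Gab1 at −0.19 ± 0.05 (0.0444). Of 13 scaffolds and Ras inhibitors, 3 were called lower and 3 higher at ZT12, among them the Ras GTPase-activating genes Rasa2 at −0.21 ± 0.04 (adjusted p = 0.000135) and Rasal1 at 0.19 ± 0.05 (0.00195).

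Of 8 measured other MAP kinase phosphatases, Dusp16 was called lower at ZT12 (−0.35 ± 0.07, adjusted p = 0.000121) and Dusp7 higher (0.10 ± 0.04, 0.0470). Dusp2, Dusp9 and Styxl1 of this list had no value here. Of 13 measured other ERK feedback genes, 6 were called lower at ZT12, among them Ccnd1, a cyclin induced by growth factors (−0.32 ± 0.05, adjusted p = 5.58e-07), Etv4, a close relative of Etv5 (−0.56 ± 0.10, 1.35e-05), and Egr1 (−0.63 ± 0.12, 9.39e-05). The immediate early gene Ier3 and the receptor inhibitor Errfi1 were called higher, Ier3 at 0.59 ± 0.11 (adjusted p = 2.46e-05). Etv1 was the 1 gene of this list called for genotype over both feedings, at −0.15 ± 0.04 (adjusted p = 0.0238), beside Etv5. For TG against NTG on ALF 10 of the 13 were below 0 (median −0.14), none called. An unadjusted p under 0.05 was found for 7 of them there.

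The sixth list held 20 early genes that ERK and synaptic activity induce. In TG mice on ALF 19 of 20 were below 0 (median −0.20), none called, with 6 at an unadjusted p under 0.05, as were 7.3% of all genes. On TRF 5 of 20 were below 0 (median 0.05), none called, and the interaction was above 0 in all 20 (median 0.24), none called, with 3 at an unadjusted p under 0.05. For TRF against ALF 17 of 20 were above 0 in TG mice (median 0.08) and 19 of 20 below 0 in NTG mice (median −0.12), none called. Since these contrasts share animals, their values stand side by side without a test. At ZT12 19 of 20 were below 0 (median −0.35) and 12 were called lower than at ZT0, led by the neuronal transcription factor genes Npas4 (−1.23 ± 0.14, adjusted p = 5.91e-10), Fosb (−0.98 ± 0.12, 3.31e-09) and Fos (−1.52 ± 0.23, 9.47e-07) and the synaptic scaffold gene Homer1 (−0.31 ± 0.05, 1.44e-06). At ZT18 8 of 20 were called lower than at ZT6, among them Npas4 (−1.15 ± 0.22, adjusted p = 0.000175) and Fosb (−0.92 ± 0.17, 0.000182). Over all genes 8.04% passed there in either direction and 3.77% as lower.

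Some members went together closely from animal to animal and others not. After the mean of each group and time was removed, 36 pairs were compared over 69 animals. Of these pairs 19 had an adjusted p under 0.05, all 19 positive (permutation test with 100000 resamples, two-sided, Benjamini-Hochberg over 36 pairs). The permutations made no allowance for the means removed. The p-values of pairs are therefore somewhat too small, and the count of 19 may be too high. The closest pair was Dusp5 with Dusp6, the nuclear and the cytoplasmic ERK phosphatase (Pearson r = 0.63, Spearman rho = 0.65, permutation p = 1e-05 for each, the smallest these can give). Leaving out the 2 animals farthest from the median of Dusp5 gave r = 0.62, and the 45 animals numbered under 300 gave 0.59. Dusp6 with Spry4 came next (r = 0.57, rho = 0.53; 0.50 without the 2 farthest animals), then Dusp5 with Spry4 (r = 0.54, rho = 0.45), Dusp1 with Dusp5 (r = 0.52, rho = 0.51) and Dusp1 with Dusp6 (r = 0.52, rho = 0.47), each at an adjusted permutation p of 7.2e-05.

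Among the other pairs, the r of Etv5 was 0.48 with Spry2 (rho = 0.51, adjusted permutation p = 0.000206) and 0.43 with Spred1 (rho = 0.45, 0.00128), and Spry2 with Spred1 reached 0.43 (rho = 0.35, 0.000936). Etv5 also went with Spry4 (r = 0.38, rho = 0.35, adjusted permutation p = 0.00318) and with Dusp4 (r = 0.34, rho = 0.39, 0.0103), and Dusp4 with Spry2 (r = 0.29, rho = 0.28, 0.0271). Spry2 stood at r = −0.26 with Dusp6 (rho = −0.11, adjusted permutation p = 0.0544) and at −0.23 with Dusp5 (rho = −0.18, 0.0773), neither past the threshold. Without the 2 animals farthest from the median of Dusp6 or Dusp5 these were −0.31 (0.0252) and −0.28 (0.0364). All these values share library, scaling and dissection.

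**Figure D4:**
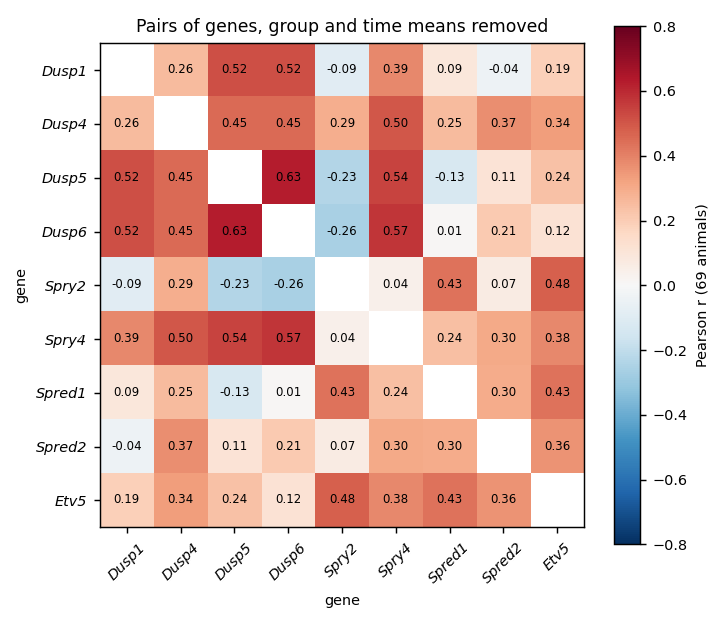
Pearson r between each 2 of the 9 genes (rows and columns, r printed in each square) over 69 animals after group and time means were removed. Dusp5, Dusp6 and Spry4 form a block between 0.54 and 0.63, and Spry2 with Dusp6 is at −0.26.

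Among all other genes, those most like Dusp6 over the 69 animals after the same means were removed were Nr4a1 (r = 0.78), Junb (0.75), Egr4 (0.75), Fos (0.69) and Arc (0.67). Those most like Dusp1 were Ier2, Ccn1, Fos and Btg2 (each r = 0.73) and Nr4a1 (0.72), and those most like Spry4 were Egr1 (r = 0.70), P4ha1 (0.68), Nfil3 (0.67), Gpr3 (0.67) and Fos (0.67). Of these 12 genes 7 belong to the list of early genes and Egr1 to the other ERK feedback genes. These correlations are a description and were not tested.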

How the data were processed

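RNA was taken from the hippocampus of 1 hemibrain per animal, enriched for poly-A and sequenced as paired ends, per the labels' protocols. The deposited table holds signal values, the authors' DESeq2 normalized counts per gene. Reads were trimmed with Trimmomatic, per the labels' protocols, and HISAT2, featureCounts, DESeq2 and the GRCm38 build are named in the submitters' processing notes without versions. Low values were not whole multiples of 1 read, so no count model was run. Depth before scaling is unknown.

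Log2 of the value plus 1 was fitted with limma 3.58.1 in R 4.3.3 (trended, robust empirical Bayes) over all 14260 genes and 69 animals, with p-values adjusted by the Benjamini-Hochberg method and a threshold of 0.05. Genotype, feeding, the 4 times and ZT18 against ZT6 were tested in a model of 4 groups plus time, and ZT12 against ZT0 and contrasts at single times from the means of the 16 groups by time. The code was tested on simulated data. Pairs were permuted in Python 3.11.15 with numpy 2.4.6. All animals entered each comparison as reported, and each replicate is an animal. The lowest mean of any gene in the table was 40.75, and no further filter was applied.

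The members and the gene lists were chosen with earlier results of these data known. All members are named; of each list at most 5 genes past the threshold are named per comparison, by smallest p, and the 5 genes most like each of Dusp6, Dusp1 and Spry4. The alternatives tried were other pseudocounts, scalings, filters, weights, subsets of animals, covariates and leaving out each animal.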

Additional observations from a re-analysis of the deposited data

Results flagged for a closer look

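In groups of 4 to 7 animals of 1 genotype, feeding and time, 90 sets of values were checked for an animal far from its group by Dixon's ratio, and 8 stood apart; chance gives about 1 in 20. In TG mice on TRF, 1 animal had a Dusp4 count of 845 at ZT6, with the others between 606 and 615. Another animal had a Spry2 count of 862 at ZT0 (others 1238 to 1436), another a Spred1 count of 3344 at ZT12 (others 2595 to 2795) and another an Etv5 count of 1823 at ZT12 (others 2128 to 2204). In NTG mice on TRF, 1 animal had a Dusp6 count of 2547 at ZT0 (others 1477 to 1819). In NTG mice on ALF, 1 animal had the lowest count at ZT12 of both Dusp6, 1348 (others 1768 to 1971), and Spred1, 2891 (others 3116 to 3239.6). A different animal had a Spred2 count of 3543 at ZT0 (others 2323 to 2642). The causes were not tested.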

How the results depend on the processing

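Over 17 settings other than leaving out an animal, 2808 member values were recomputed: 2653 kept their direction and side of the threshold, 44 lost a call, 21 gained one, and 89 changed sign with no call in either fit (sizes up to 0.27 as reported). Spry2, ZT12 against ZT0, changed sign as a called value, to 0.0343 with the precursor level as a covariate. With the library marked R left out in place of averaged, 179 member values stayed the same and 1 gained a call.

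Members called for TG against NTG on ALF were 2, but 4 with array weights, 1 with the precursor covariate, and 0 with ZT0 and ZT12 animals only, without the 5 least correlated animals, or from the 16 means (adjusted p = 0.0515 for Dusp6 and 0.0747 for Dusp4). Over both feedings they were 3, but 1 from the 16 means and 0 with ZT0 and ZT12 only or the precursor covariate. The precursor covariate gave 2 in place of 6 over the 4 times, and 0 in place of 6 for ZT12 against ZT0. The share of all genes called with that covariate is not given here. In NTG mice on ALF the 2 became 1 without the 5 animals, 4 with the astrocyte covariate and 0 with the precursor covariate. For TG against NTG at ZT12 array weights gave 2 in place of 0.

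Leaving out each animal gave 2 to 3 members for TG against NTG on ALF, 3 to 4 over both feedings, 5 to 6 over the 4 times and for ZT12 against ZT0, 1 to 4 for ZT12 against ZT0 in NTG mice on ALF, and 0 to 1 for this contrast in TG mice on ALF, for TRF against ALF over both genotypes and at ZT0. The other comparisons did not change. Pairs called were 19 with Spearman's rho, 22 without the 2 farthest animals and 17 with animals numbered under 300, against 19. All these counts of pairs may be too high, since the permutations made no allowance for the means removed. No paired analysis was possible because animal numbers are not shared between groups. The table gives no depth before scaling, sex is not given per animal, and causes of these changes were not tested.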
